A study of Mus musculus with 6 samples.

Results

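Mucins are long secreted or membrane-bound proteins whose serine and threonine residues carry dense O-linked sugar chains. The chains are built in the Golgi in a fixed order. A polypeptide GalNAc-transferase adds the first sugar, N-acetylgalactosamine. Core enzymes then extend or branch it, and fucosyl- and sialyltransferases cap the ends. In the airway these chains hold water and give mucus its gel properties, and goblet cells make most of the secreted mucin. Here 10 genes of this route are described, chosen by name with earlier results of these data known. They are the GalNAc-transferases Galnt3, Galnt6, Galnt7, Galnt10 and Galnt12, the core enzymes C1galt1, Gcnt1 and Gcnt3, and the capping enzymes Fut2 and St3gal1. All 10 were on the array, with 25 probe sets of 45037 that were tested, and they are 10 of 18193 genes.

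Whole-lung RNA was measured on 6 Affymetrix mouse arrays, 1 per sample, at postnatal day 15. There were 3 controls, whose genotype label reads wildtype, and 3 littermates with the genotype label Foxa2-/- (called null lungs here). The stated question is how loss of Foxa2, a forkhead transcription factor of lung epithelium, bears on type 2 inflammation and goblet cell excess. The strain label of both groups reads SPC(+)Cre(-) and gives doxycycline (Dox) at embryonic days 6.5 to 12.5, so it does not set the groups apart. SPC is the usual name of surfactant protein C, a product of lung epithelial cells, and the labels do not spell out the alleles further.

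All signal values below are log2 signal of a probe set, as deposited, and a difference is the null mean minus the control mean on that scale. Each gene is given by its brightest probe set unless stated. Foxa2 read 10.28, 10.56 and 10.28 in controls 1 to 3 and 7.72, 5.38 and 5.13 in null lungs 1 to 3. Every null lung was therefore below every control, and null 1 kept the most signal. Its difference of -4.30 (SE 0.66) had a limma adjusted p of 0.0599, which misses the 0.05 threshold. Without null 1 it was -5.12 with an adjusted p of 0.00227. The lung markers Sftpc and Scgb1a1 averaged 14.40 each in controls. Control 2, null 2 and null 3 share a number in their sample titles, whose meaning is not given. Nothing in the labels ties each array to its own animal, so the p-values cover the spread of these 6 samples, part of which may be technical. As a sign of RNA integrity, the 3-prime signal of Gapdh exceeded its 5-prime signal by 1.06 to 1.23 in controls, and in null lungs by 0.91 to 0.97. Its part in the results below was not tested.

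None of the 10 enzyme genes passed limma's test over all genes at an adjusted p under 0.05, where 104 of 18193 genes (0.572%) passed. That background count rests on single arrays: it was 0 without control 1, control 2 or null 3, 19 without control 3, 7 without null 2 and 249 without null 1. At an unadjusted p under 0.05, 5 of the 10 were higher in null lungs (7.28% of all genes) and 0 were lower (5.07% of all genes). Every null lung lay above every control for Galnt6, Galnt12, Gcnt3, Fut2 and St3gal1, 5 of the 10, as for 10.8% of all genes. For C1galt1 every null lung lay below every control, as for 8.73% of all genes. The groups overlapped for the other 4. The median difference of the 10 was 0.69, beside 0.01 over all genes. Without null 1 that median was 0.91, without null 2 it was 0.57, and within the 3 samples that share a title number it was 0.70. The 10 enzymes were listed with earlier results of these data known, so these contrasts with all genes are descriptive only. The smallest adjusted p values among the enzymes were those of Fut2 (0.0936) and Galnt6 (0.106).

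**Figure D1:**
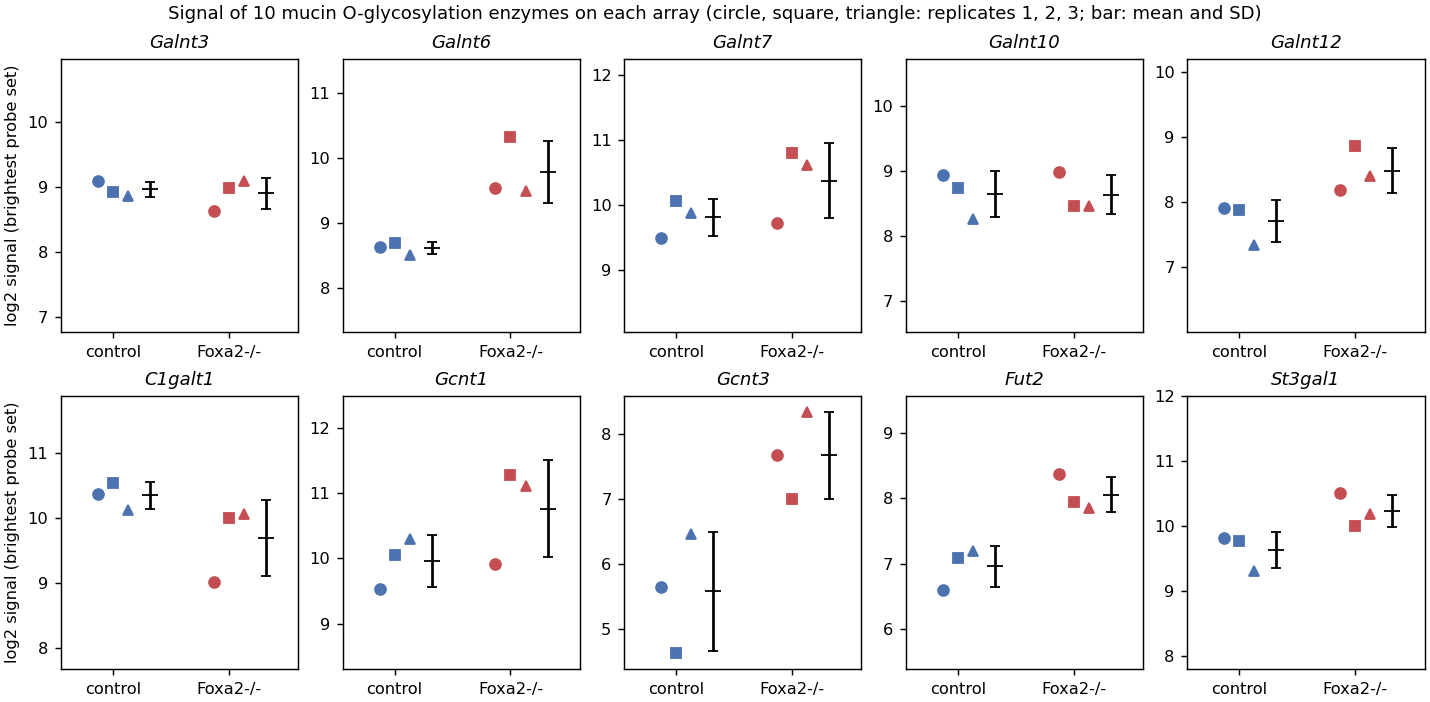
Log2 signal of the brightest probe set of each enzyme (y axis) on the 3 control and 3 Foxa2-/- arrays; each panel spans the same number of log2 units, and bars give the mean and SD of each group. The red and blue points do not overlap for Galnt6, Galnt12, C1galt1, Gcnt3, Fut2 and St3gal1.

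Of the 5 GalNAc-transferases, 2 had every null lung above every control and 3 overlapped. Galnt6, a close relative of Galnt3, read 8.63, 8.70 and 8.51 in controls 1 to 3. In null lungs 1 to 3 it read 9.53, 10.32 and 9.49. The controls lay close together and null 2 stood highest, while null 1 and null 3 were nearly equal. The means were 8.61 ± 0.09 and 9.78 ± 0.47 (SD, n = 3 each), so the null mean was 2.25-fold the control mean. The difference of 1.17 (95% interval 0.60 to 1.73) did not pass, with a limma adjusted p of 0.106. It was 0.90 without null 2 and 1.21 within the shared title number, and it passed with array weights (1.30, limma adjusted p = 0.0399). That setting passed 607 of all 18193 genes, beside 104 in the main fit. The other 2 Galnt6 probe sets were dimmer and gave 0.45 and 0.34, the former with overlapping groups, and with the mean of its 3 probe sets the difference was 0.65.

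Galnt6 is the one gene among the 5 higher enzymes with entries in the RefSeq promoter table (GRCm38.p6), and 2 start sites are listed. Their last 120 bases before the start are shown so that the promoters of this enzyme can be read beside its values, with matches to the motifs named further on in capitals, of which there are 0. The first, at chr15:100729377-100729496 on the minus strand, lies before the start of the gene. The second, at chr15:100720478-100720597 on the same strand, lies before a start inside the gene.
Galnt6 upstream start: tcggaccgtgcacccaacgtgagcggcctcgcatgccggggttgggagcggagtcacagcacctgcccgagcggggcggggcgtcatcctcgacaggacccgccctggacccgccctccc
Galnt6 inner start: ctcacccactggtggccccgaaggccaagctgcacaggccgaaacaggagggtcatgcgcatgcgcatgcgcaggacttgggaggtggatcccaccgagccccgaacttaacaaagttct
The full 300-base windows of these starts are 73.7% and 57.7% G or C.

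Galnt12, a family member best known from the digestive tract, has 1 probe set. It read 7.91, 7.88 and 7.34 in controls and 8.19, 8.86 and 8.40 in null lungs. Every null lung was above every control, with null 1 only 0.28 above control 1, the highest control. The difference was 0.78 (SE 0.23, limma adjusted p = 0.24), and it was 0.75 within the shared title number.

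Galnt7 and Galnt10 encode follow-up enzymes, which prefer peptides that already carry a GalNAc. Galnt7 read 9.49, 10.05 and 9.87 in controls and 9.72, 10.79 and 10.61 in null lungs. Null 2 and null 3 were above all controls and null 1 lay among them, so the groups overlapped. The difference was 0.57 (95% interval -0.17 to 1.30, limma adjusted p = 0.525) and 0.89 without null 1. Its dimmest probe set gave 0.75 with no overlap (limma adjusted p = 0.226 over probe sets), and the third gave 0.24. Galnt10 read 8.94, 8.74 and 8.25 in controls and 8.98, 8.46 and 8.46 in null lungs. Both groups span nearly the same range, and the difference was -0.01 (95% interval -0.56 to 0.54). The 2 dimmer Galnt10 probe sets gave 0.23, with every null lung above every control, and 0.45 with overlapping groups. The latter was below the 25th percentile on all 6 arrays. The sign of the brightest one turned under 6 alternatives, median centring among them.

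Galnt3, which also glycosylates the hormone FGF23, read 9.10, 8.93 and 8.86 in controls. In null lungs it read 8.64, 8.99 and 9.09. Null 1 was the lowest of the 6 arrays and the other 2 null lungs lay among the controls. The difference was -0.06 (95% interval -0.43 to 0.31, limma adjusted p = 0.904), and its sign turned without null 1 (0.07) and with the mean of its 3 probe sets (0.10). Whether the differences of Galnt3 and Galnt6 are unequal was not tested.

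The core enzymes did not share a direction. C1galt1 is the galactosyltransferase that makes the core 1 disaccharide, the base of most mucin O-glycans, and it was the only one of the 10 enzymes with every null lung below every control. It read 10.36, 10.55 and 10.13 in controls and 9.02, 10.005 and 10.06 in null lungs. Null 1 stood far below the others, while null 3 was 0.07 below control 3. The means were 10.35 ± 0.21 and 9.69 ± 0.59 (SD, n = 3 each), so the null mean was 1.57-fold lower. The difference of -0.65 (95% interval -1.37 to 0.06, limma adjusted p = 0.443) did not pass and was -0.32 without null 1, and -0.51 within the shared title number. The dimmer probe sets gave -0.41 and -0.26, both with overlapping groups.

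C1galt1c1 encodes the chaperone without which the C1galt1 protein does not fold. It is named here after its values were seen. It read 11.29, 11.35 and 11.22 in controls and 10.08, 11.15 and 11.03 in null lungs. Null 1 was the lowest array, as for C1galt1. Null 1 was also lowest for other genes of the route, such as Gnpnat1 (10.64 beside 11.86 and 11.81 in null 2 and null 3) and Fpgt (7.98 beside 9.33 and 9.44), so this is not particular to the pair. Its difference was -0.53 (SE 0.28, limma adjusted p = 0.521), and its dimmer probe set gave 0.17 with overlapping groups.

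Gcnt1 and Gcnt3 both attach the N-acetylglucosamine branch that turns core 1 into core 2. Gcnt1 is the leukocyte form, known for its part in selectin ligands, and Gcnt3 is the form of mucin-secreting tissues and also makes core 4. Gcnt1 read 9.53, 10.05 and 10.30 in controls and 9.91, 11.28 and 11.11 in null lungs. Null 2 and null 3 were above all controls and null 1 lay among them. The difference was 0.81 (95% interval -0.13 to 1.75, limma adjusted p = 0.48). It was 1.23 without null 1 and 1.14 within the shared title number, and its dimmer probe set gave 0.60.

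Gcnt3 was dim in the controls. It read 5.65, 4.63 and 6.46 in controls and 7.67, 7.00 and 8.33 in null lungs. The control values are widely spread, and the lowest null lung was 0.54 above the highest control. The means were 5.58 ± 0.91 and 7.67 ± 0.67 (SD, n = 3 each). Controls 1 and 2 were below the 25th percentile of their arrays (5.69 to 5.78 over the arrays), a range in which signal and background cannot be separated in these values, and no fold is quoted. The difference of 2.09 (95% interval 0.84 to 3.33) did not pass, with a limma adjusted p of 0.168. Within the shared title number it was 3.03, because control 2 is the control with the lowest reading. Both other Gcnt3 probe sets were below the 25th percentile on all 6 arrays and gave 0.22 and -0.03, and with the mean of the 3 the difference was 0.76, so the size of the Gcnt3 difference rests on 1 probe set and on dim controls.

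The 2 capping enzymes were both higher in every null lung than in every control. Fut2, the secretor enzyme, adds a fucose to the outer galactose of mucin chains. It read 6.59, 7.09 and 7.19 in controls 1 to 3. In null lungs it read 8.37, 7.95 and 7.86. Null 1 was the highest, and the lowest null lung was 0.67 above the highest control. The means were 6.96 ± 0.32 and 8.06 ± 0.27 (SD, n = 3 each), so the null mean was 2.15-fold the control mean. The difference of 1.10 (95% interval 0.60 to 1.61) came nearest to the threshold of the 10, at a limma adjusted p of 0.0936, and was 0.82 within the shared title number. Fut2 passed with array weights (1.04, limma adjusted p = 0.0344) and when the title number was a random block (0.997, limma adjusted p = 0.0477). Those settings passed 607 and 399 of all 18193 genes, beside 104 in the main fit. Its other probe set was below the 25th percentile on 5 arrays and gave 0.15, and with the mean of both the difference was 0.63.

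St3gal1 adds a sialic acid to the galactose of core 1, a step that competes with core 2 branching. It read 9.81, 9.78 and 9.30 in controls and 10.50, 10.004 and 10.18 in null lungs. Null 1 was again the highest, and null 2 was 0.20 above control 1, the highest control. The difference was 0.60 (SE 0.20, 95% interval 0.13 to 1.07, limma adjusted p = 0.282), a ratio of 1.52-fold. Within the shared title number it was 0.32, and its dimmer probe set gave 0.31 with overlapping groups.

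**Figure D2:**
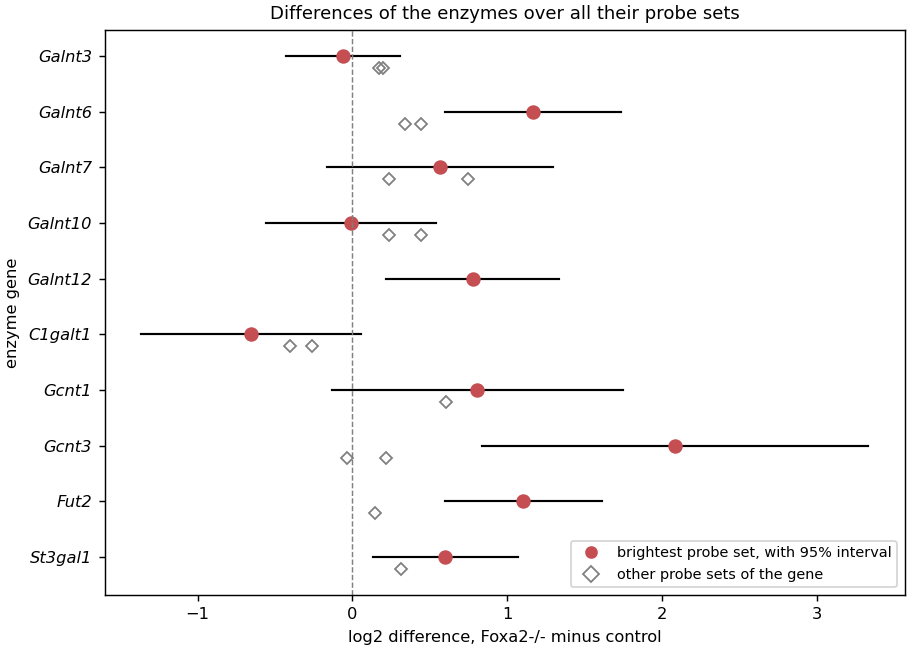
Log2 difference, Foxa2-/- minus control (x axis), of each enzyme (y axis): red points are brightest probe sets with 95% limma intervals, grey diamonds the other probe sets. Most diamonds lie nearer to 0 than the brightest probe set of their gene, as for Gcnt3 (2.09 against 0.22 and -0.03).

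Over all 25 probe sets, 0 passed the limma test over probe sets, where 0.0999% of 45037 did. At an unadjusted limma p under 0.05, 7 were higher in null lungs and 0 lower, beside 2716 and 2097 of all 45037. The difference was positive for 19 of the 25, beside 23004 of all 45037. Every null lung was above every control for 8 of them (9.73% of all probe sets) and below for 1 (7.76%). By role, this was 5 of 13 probe sets of the GalNAc-transferases above and 0 below, 1 of 8 of the core enzymes above and 1 below, and 2 of 4 of the capping enzymes above and 0 below. Probe sets of a gene share its transcript and are not replicates.

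The RefSeq promoter table (GRCm38.p6), which gives 250 bases before to 50 after a start, held 9 windows for 6 of the 10 enzymes: Galnt3, Galnt6, Galnt7, Galnt10, Gcnt1 and C1galt1. Galnt12, Gcnt3, Fut2 and St3gal1 have no entry there. The windows were read on both strands for letters bound by FOXA factors (TGTTTAC and its variant TGTTTGC as well as TATTTAC and its variant TATTTGC) and for the STAT6 element TTCNNNNGAA. STAT6 is the factor through which the type 2 cytokines IL-4 and IL-13 act. FOXA letters stood in 1 of the 9 windows, beside 13.5% of all 32851 windows, and STAT6 letters in 1 of 9, beside 7.0%. Both belong to Gcnt1, at separate start sites, and these stretches are shown because they hold the only matches, in capitals. They lie on the minus strand at chr19:17372892-17373011, with TATTTAC read on the opposite strand, and at chr19:17356798-17356917, with 2 matches.
Gcnt1 upstream start: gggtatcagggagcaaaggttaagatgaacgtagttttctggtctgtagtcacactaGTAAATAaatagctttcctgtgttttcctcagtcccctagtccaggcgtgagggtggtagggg
Gcnt1 second start: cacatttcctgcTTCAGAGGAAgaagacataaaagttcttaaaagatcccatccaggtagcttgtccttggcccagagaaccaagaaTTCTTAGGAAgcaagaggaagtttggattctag
A match describes letters only and is no sign that a factor binds, and the absence of these letters from a window of 300 bases says nothing of the factor. The groups overlapped for Gcnt1, as given above.

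The remaining genes of the route were read from 7 lists, with 0 of 81 genes passing over all genes. At an unadjusted p under 0.05, 6 of the 81 were higher (7.28% of all genes) and 4 lower (5.07% of all genes), shares near those of all genes. None of 13 other GalNAc-transferases passed and their median difference was -0.03. In that list, 2 had every null lung above every control (10.8% of all genes) and 2 below (8.73%). Galnt13, a form best known from neurons, read 5.43, 5.17 and 5.39 in controls and 5.84, 6.23 and 6.20 in null lungs, a difference of 0.76 (limma adjusted p = 0.103). It passed without null 1 (0.88, limma adjusted p = 0.0401), with array weights and under the random block, but its control values are below the 25th percentile and its other probe set gave 0.21. Galnt18 differed by -0.54 (limma adjusted p = 0.277).

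None of 16 other core and extension genes passed, with a median of 0.02. B3gnt7, a transferase that lengthens keratan sulfate chains, read 7.18, 7.31 and 7.12 in controls and 8.42, 8.54 and 7.96 in null lungs. All 3 null lungs were well above the controls, and the difference of 1.10 (SE 0.17, limma adjusted p = 0.0605) passed with array weights (1.08, limma adjusted p = 0.0274). B4galt5, a galactosyltransferase, differed by 0.52 (limma adjusted p = 0.165) with every null lung above every control. None of the 7 other fucosyltransferases passed or had groups apart. Their differences ran from -0.14 (Fut9) to 0.08, and Fut11 gave -0.10. The 13 other sialyltransferases likewise had 0 that passed and 0 with groups apart, from -0.59 (St6gal2) to 0.55 (St3gal4). St6gal2 averaged 3.85 in controls and 3.26 in null lungs, and Fut9 averaged 3.88 and 3.74. Both were below the 25th percentile of every array, where signal and background cannot be separated.

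Among 7 sulfotransferases, which add sulfate to chain ends, 0 passed and all groups overlapped. Chst4, known from selectin ligands of lymph node vessels, had the largest difference of the list at 1.39 (SE 0.51, limma adjusted p = 0.342), and Chst5 gave -0.82 (limma adjusted p = 0.407). Of 16 genes that make or carry the sugar donors 0 passed, with a median of -0.13. Slc35c1, the Golgi carrier of the fucose donor, had every null lung above every control and a difference of 0.38 (limma adjusted p = 0.35), and Pgm3 gave -0.29. Of the 9 mucins 0 passed. The membrane mucins did not share a direction. Muc1 had every null lung above every control (0.52, limma adjusted p = 0.219). Muc20 (-0.80, limma adjusted p = 0.179) and Muc4 (-0.70, limma adjusted p = 0.21) had every null lung below every control, and Muc20 passed without null 1 (limma adjusted p = 0.0448) and with array weights (-0.93, limma adjusted p = 0.0267). The gel-forming mucins Muc5ac and Muc5b are chief carriers of these chains in airway mucus. Muc5ac differed by 1.13 (SE 0.56, limma adjusted p = 0.487) and Muc5b by 1.10 (SE 0.72, limma adjusted p = 0.602), with overlapping groups. Muc5b read 9.755, 7.145 and 9.83 in controls and 10.44, 9.71 and 9.88 in null lungs, with control 2 far below the rest. Control 2 was the lowest array for Muc5ac too.

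**Figure D3:**
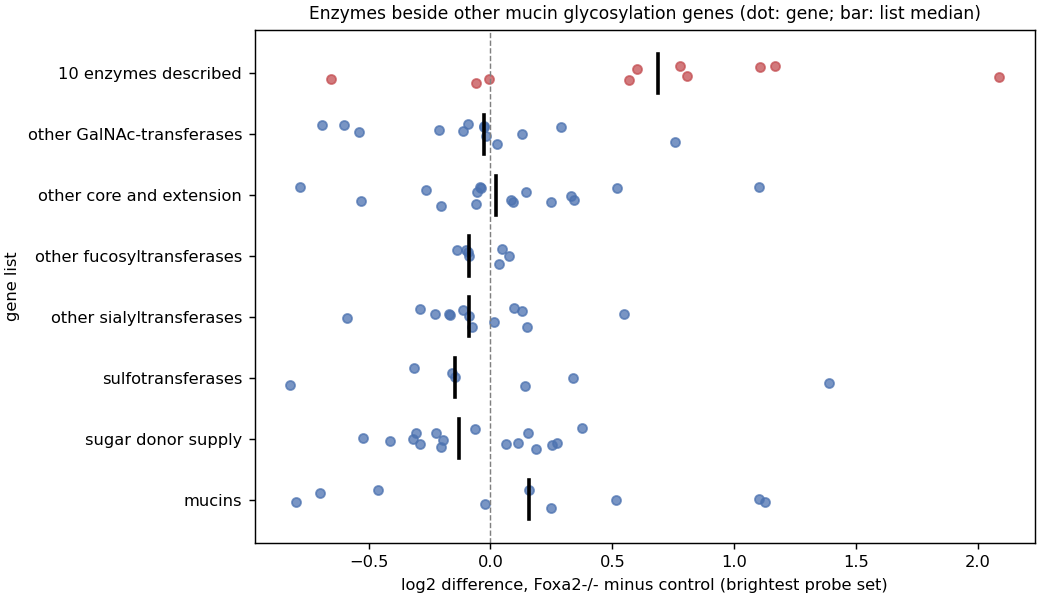
Log2 difference of each gene, Foxa2-/- minus control (x axis), for the 10 enzymes (red) and 7 lists of other genes of the route (blue); black bars are list medians. The median of the 10 enzymes is 0.69, and those of the other lists lie between -0.15 and 0.16. The enzymes and lists were chosen with earlier results of these data known, and the lists were not tested against each other.

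In whole-lung RNA more cells of a type and more RNA per cell cannot be told apart, so markers of the cells that could carry these enzymes were read beside them, from 12 lists. None of 10 goblet cell markers passed over all genes. Every null lung was above every control for 5 of them (10.8% of all genes), and their summed level (log2) was 10.65 to 13.16 in controls against 13.85 to 14.48 in null lungs. That sum is mostly Clca1, which read 13.15 to 13.58 in null lungs. Clca1 read 10.95, 7.08 and 11.61 in controls 1 to 3, and its difference was 3.50 (SE 1.11, limma adjusted p = 0.274). Control 2 was also the lowest control for the mean of the goblet list, as for Gcnt3. That mean lay -0.996 from the mean of the controls, beside 0.39 and 0.60 in controls 1 and 3. Muc5ac differed by 1.13, while the third defining marker, Spdef, a driver of goblet cell differentiation, averaged 6.90 in controls and 6.87 in null lungs. Agr2 had the smallest adjusted p of the 10 goblet cell markers (2.16, limma adjusted p = 0.0795). The difference was positive for 9 of the 10, beside 9246 of all 18193 genes. Of 6 markers of club cells, the main secretory cells of the airway, 0 passed and 4 had every null lung below every control (8.73% of all genes). Among them Cldn10 differed by -0.85 (limma adjusted p = 0.0605). None of 8 general epithelial markers passed, with 3 above (10.8% of all genes). Their sums were 14.96 to 15.18 in controls against 15.21 to 15.58.

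Some leukocyte markers did pass. Of 5 eosinophil markers 3 rose, beside 86 of all 18193 genes. Among the 3 were Prg2 (3.50, limma adjusted p = 0.0152) and Epx (2.402, limma adjusted p = 0.0208), which encode granule proteins. Controls of Epx (5.58, 5.02 and 5.80) and of the third, Prg3 (4.77, 4.59 and 5.18), were near or below the 25th percentile of their arrays. The sizes of those 2 differences therefore rest on dim controls. The sums of the eosinophil list were 8.24 to 9.27 in controls against 10.70 to 11.65 in null lungs. Of 8 macrophage markers 2 rose, Cd68 (1.45, limma adjusted p = 0.0198) and Itgax (1.94, limma adjusted p = 0.036). Every null lung was above every control for 7 of the 8, beside 10.8% of all genes (sums of 14.46 to 14.69 against 15.16 to 15.62). None of 6 markers of all leukocytes passed. For 5 of these every null lung was above every control (10.8% of all genes), while Ptprc, the common leukocyte antigen, overlapped. The sums of these 6 were 14.61 to 15.06 against 15.23 to 15.73. None of 6 T cell markers passed, and 2 lay above (10.8% of all genes), with sums of 11.06 to 12.91 against 12.68 to 13.79. None passed among 6 neutrophil, 5 B cell, 8 ciliated cell, 7 alveolar type 2 cell and 6 endothelial markers. No defining marker of these lists is at 0, since the scale has none. The part of these cells in the enzyme values was not tested.

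**Figure D4:**
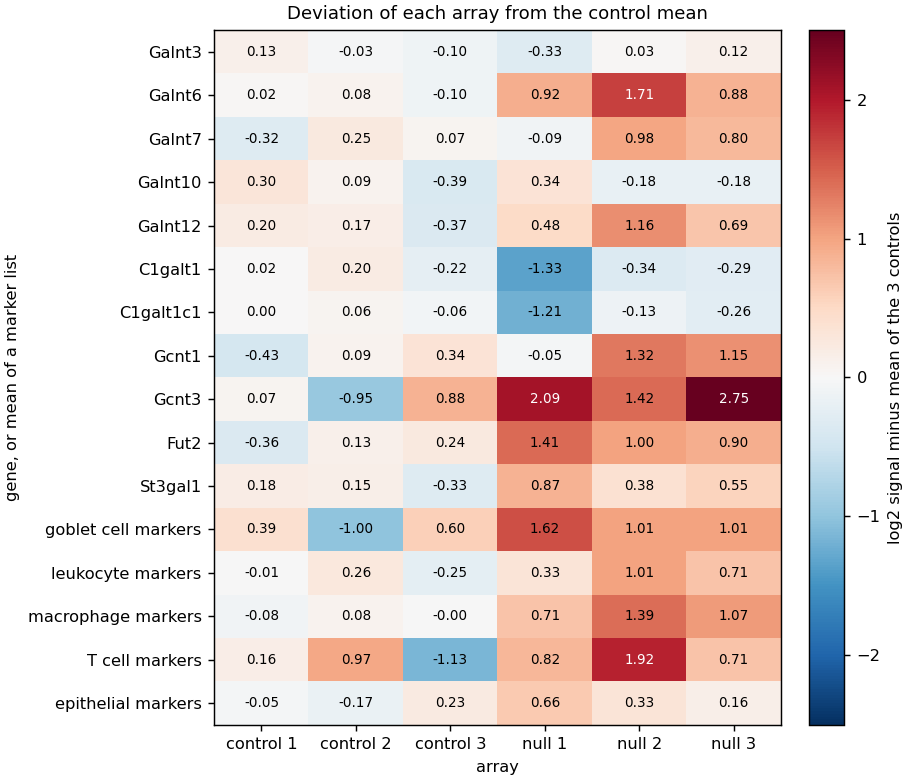
Log2 signal minus the mean of the 3 controls, for each array (columns), of the 10 enzymes, C1galt1c1 and the means of 5 marker lists (rows); numbers give the value of each cell. Null 1 is lowest for C1galt1 (-1.33) and C1galt1c1 (-1.21) and is -0.05 for Gcnt1, where null 2 is 1.32 and null 3 is 1.15.

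The 3 null lungs differed among themselves. Null 1 was the lowest null lung for 5 of the enzymes (Galnt3, Galnt7, Galnt12, C1galt1 and Gcnt1) and the highest for 3 (Galnt10, Fut2 and St3gal1). Over all probe sets null 1 had a Pearson's r of 0.976 and 0.977 with null 2 and null 3, which had 0.992 with each other. Null 2 and null 3 had 0.979 to 0.988 with the controls, so by this measure each was nearer to every control than to null 1. These correlations are across probe sets, which are not independent replicates.

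The genes whose profiles over the 6 arrays lay nearest to those of Fut2 and Galnt6 were found by the root mean square distance between log2 profiles, each minus its own mean. For Fut2 they were Ahnak2 (0.14), Nfkbie (0.16) and Tlr2 (0.17). Ahnak2 read 7.75, 8.27 and 8.52 in controls and 9.36, 9.38 and 9.13 in null lungs. For Galnt6 they were Pycard (0.08), Pstpip1 (0.10) and D6Ertd527e (0.12). Pycard read 10.14, 10.18 and 10.05 in controls and 11.01, 11.73 and 10.79 in null lungs, with null 2 highest as for Galnt6. None of the 6 neighbours passed the limma test, with adjusted p values from 0.0599 to 0.184. The distance takes in the group difference, so their differences resemble those of Fut2 and Galnt6 by selection.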

How the data were processed

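The deposited values are log2 signals, 1 per probe set and array. They were made with RMA, per the submitters' processing notes, which name no version or settings. RMA brings arrays to a common distribution, so a shift of most genes one way would not be seen. That the scale is log2 follows from their range (2.36 to 14.95, array medians 7.85 to 7.91).

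Groups follow the genotype label, and replicate numbers follow accession order and pair nothing. Of 45101 probe sets, 64 Affymetrix controls were left out. Probe sets with 1 gene symbol numbered 34945, with several 932 and unnamed here 9160. For 34741 the Entrez identifier was in the RefSeq gene table (GRCm38.p6), and 0 symbols changed. Each of 18193 genes was represented by its probe set with the highest mean. The comparison used limma 3.58.1 under R 4.3.3 (lmFit, eBayes, two-sided, Benjamini-Hochberg over all genes or all probe sets, threshold 0.05, 95% intervals), with no filter on dim signal and no covariate. No p was adjusted over the enzymes alone. On data simulated for this comparison over 18193 genes, the test found 56.7% of the 67 genes shifted by 1 log2 unit. It found 89.6% of the 67 shifted by 2 and 90.9% of the 66 shifted by 3, besides 4 unchanged genes. The simulated noise was independent between genes and arrays, with each gene's own residual SD. It held no deviating array and no title-number group, so these shares may be higher than on the real arrays. The number of arrays limits the precision.

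The enzymes and lists were chosen with earlier results of these data known. Named were all 10 enzymes, Foxa2, from each list the genes that passed (at most 4) or else the 2 with the smallest p, defining markers, and the 3 nearest profiles of 2 enzymes. C1galt1c1, Muc5b, Muc1, Gnpnat1, Fpgt, Agr2, Cldn10 and Ptprc were named after their values were seen. Some genes of the lists were not analysed here. Alternatives were median centring, cyclic loess, 2 filters on dim signal, array weights, trend and robust settings of eBayes, the mean over a gene's probe sets, each sample left out, a block for the title number (fixed, or random with statmod 1.5.0), only the samples sharing it, a threshold of 0.1 and at least 2-fold.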

Additional observations from a re-analysis of the deposited data

How the results depend on the processing

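Of the 10 genes 0 passed as reported, with both scalings, both filters on dim signal (5 genes were left above the median signal), trend and robust settings, the fixed block, the shared title number, each array left out, the mean of probe sets and a minimum of 2-fold. With array weights 2 passed (607 of all 18193 genes). With the random block 1 passed (399 of all genes), as with an adjusted p under 0.1 (320 of all genes). Of the 25 probe sets 0 passed throughout. The enzymes' median of 0.69 was 0.86 with array weights, 0.57 with the mean of probe sets and 0.57 to 0.91 with each array left out. For the 7 lists the calls were 4 with array weights, 1 with the random block, 1 with an adjusted p under 0.1 and 0 to 2 with each array left out, where 2 (Galnt13 and Muc20) came without null 1.

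The counts over all genes and all probe sets moved more. Instead of 104 genes, limma called 48 with cyclic loess, 52 above the median signal, 607 with array weights, 399 with the random block, 320 with an adjusted p under 0.1, and 0 to 249 with each array left out. Instead of 45 probe sets it called 6 with cyclic loess, 72 with trend and robust settings, 564 with array weights, 279 with the random block, 232 with an adjusted p under 0.1, and 0 to 144 with each array left out. With the title number as a fixed block, or only the samples that share it, limma called 0 genes and 0 probe sets (2121 and 4507 at an unadjusted p under 0.05), on 1 control and 2 null arrays.

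Only Galnt3 and Galnt10, whose differences were near 0, turned sign among the enzymes. Galnt3 was 0.019 with array weights, 0.11 with the fixed block and with the shared title number, 0.10 with the mean of probe sets, and -0.15 to 0.075 with each array left out. Galnt10 was 0.015 with median centring, 0.22 with the mean of probe sets, and -0.20 to 0.14 with each array left out. The cause was not tested. No paired analysis was possible because the replicate numbers, given in accession order, pair no samples; the block on the title number above groups 3 arrays and pairs none. The deposited values hold no measure of signal over background. This limits what can be read from dim probe sets, such as those of Gcnt3, Fut2, Galnt10, Galnt13, Fut9, St6gal2, Epx and Prg3.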
